A study of Mus musculus with 59 samples.

Results

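The infarcted left ventricle of the mouse was compared with sham-operated left ventricle 4 h into a myocardial infarction, across all genes that an Affymetrix expression array could follow. The comparison rests on 6 of the 59 arrays of the series, chosen by the region and time in their titles. There were 3 arrays of infarcted tissue and 3 of the sham upper region, called arrays 1, 2 and 3 of their group in the order of the numbers in their titles, and values are given in that order. Each array was hybridised with total RNA of 1 tissue sample, and pooling of mice is not mentioned in the labels. The infarct pieces came from below the LAD artery (the left anterior descending coronary artery, which feeds the front wall and the apex) in mice with an infarction. The sham upper pieces came from above that artery in mice that had the operation without an infarction. Region and infarction therefore differ together in this comparison. A single sham lower array of 4 h, which shares its title number with sham upper array 1, covers the region that matches the infarct. Another 3 remote arrays, which share their title numbers with the infarct arrays, cover the tissue above the infarct. Strain, sex, age and the clock hour of collection are not given in the labels used here. The infarct and sham numbers lie in separate ranges, so handling of the 2 sets of mice at different times cannot be told apart from the infarction. Nothing in the labels says how the pieces of 1 group relate beyond their numbers. The p-values set differences against the spread between pieces within groups, estimated over all 59 arrays and not from these 6 alone.

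A coronary occlusion deprives the wall of oxygen, and within hours stressed muscle, vessel and connective tissue cells switch on genes that need no new protein synthesis for their start. These include the AP-1 transcription factors, which pair Fos, Jun and Atf proteins, and the cytokines and chemokines that NF-kB controls and that call neutrophils and monocytes to the wound. Unfolded proteins free the heat shock factor to activate chaperone genes, while the heart lowers genes for the use of fuel and for electrical currents over a longer time. A piece of ventricle mixes muscle cells, endothelium, fibroblasts and blood cells, so fewer cells of a type and less RNA per cell cannot be told apart.

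Of 6670 genes tested, 796 (11.9%) passed an adjusted p below 0.05 (limma, Benjamini-Hochberg), 350 (5.25%) higher and 446 (6.69%) lower in the infarct. The rises were the larger changes. Among the genes that passed, 107 (1.6%) rose and 45 (0.675%) fell at least 2-fold, and 37 rose but 1 fell at least 4-fold. Differences are log2 differences of intensity after adding 45.6 units, which understates the change of genes of low signal, and the median difference over all genes was -0.01. In the absence of any threshold on p, the 3 infarct arrays lay above all 3 sham upper arrays for 1164 genes (17.5%) and below them for 1360 (20.4%). The 6 array medians and those of the other 4 h arrays lay between 172.1 and 186.1 units. Arrays of 1 group correlated at 0.981 to 0.986, and infarct with sham upper arrays at 0.952 to 0.962. Leaving out infarct array 2 lowered the count to 526, the lowest of the 6 counts with 1 array left out, and 178 of the 350 rises and 184 of the 446 falls passed in all 6 of those fits. Against the single sham lower array 144 genes (2.16%) passed, of which 137 had also passed in the same direction against the sham upper arrays. Both comparisons share the infarct arrays. The map of changes by level sets out the whole distribution.

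**Figure D1:**
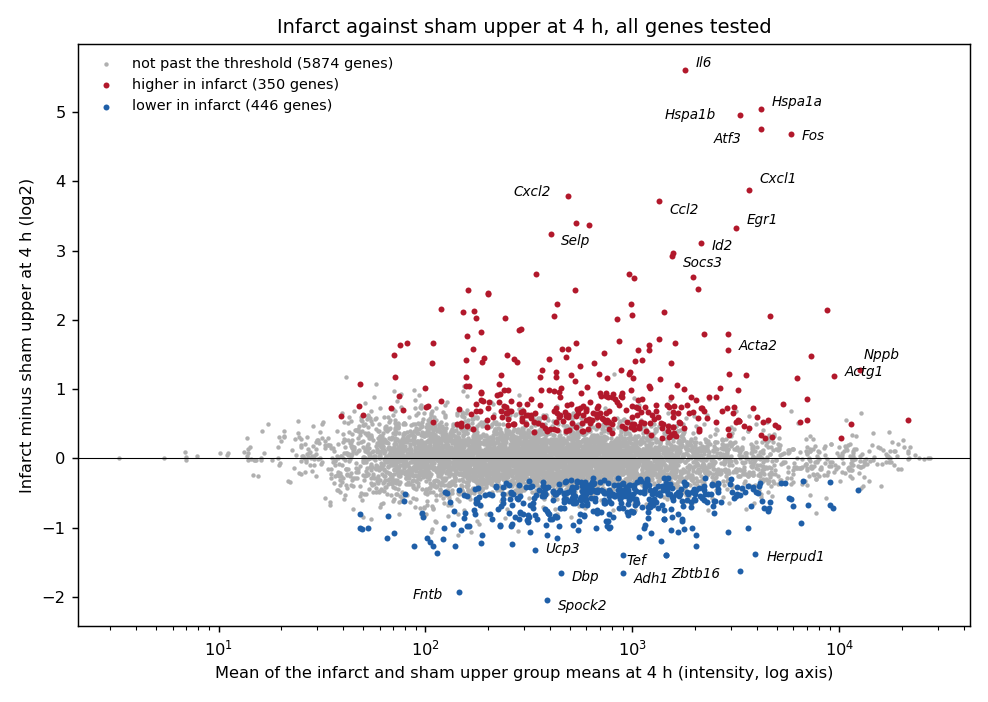
Each point is 1 of 6670 genes, with the mean of the infarct and sham upper group means at 4 h in intensity units on a log axis and the log2 difference between the groups on the vertical axis. The 350 genes that passed upward reach 5.6, while the 446 that passed downward reach -2.04.

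Genes of the immediate early response formed the strongest group. Of 46 genes tested on the early transcription factor list, 28 rose and 1 fell. The list median was 0.78 against -0.01 over all genes. Of the 28 rises, 25 passed in every fit with 1 array left out. The rises include Ccn2, a matricellular gene that is also counted in the matrix list. Atf3, a stress-induced member of the Atf family, was at 9076.7, 8269.7 and 7008.4 units on the infarct arrays and at 274.2, 259.9 and 232.1 on the sham upper arrays. The groups were far apart, with a log2 difference of 4.76 (SE 0.32, adjusted p = 2.6e-14 by limma), and a second probe set of the gene gave 5.05. Fos, the classic AP-1 partner of Jun, read 11800.8, 12464.7 and 9579.1 in infarct against 308.5, 359.3 and 540.6 in sham upper tissue, a difference of 4.68 (SE 0.41, adjusted p = 2.5e-11 by limma). All infarct values of Fos exceeded every sham value by a wide margin, and the sham lower array read 302.7.

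The response reached other families of early factors but not every member. Egr1, a zinc finger factor of growth and injury signals, rose from 541.1 ± 123.1 to 5762.8 ± 460.9 (mean ± SD, n = 3 each), a log2 difference of 3.33. Id2, which blocks basic helix-loop-helix factors, rose from 402.3 ± 49.1 to 3873.2 ± 847.0 (SD, n = 3 each), whereas its relative Id1 was the list's single fall, from 1546.1 ± 255.4 to 735.3 ± 18.2. The differences were 3.11 for Id2 and -1.01 for Id1, and neither gene's groups overlapped. Junb rose by 2.62, the orphan nuclear receptor Nr4a1 by 2.44, Fosb by 2.01, the growth regulator Myc by 1.87 and Egr2 by 1.86 on the log2 scale. Jun itself, at 599.9, 555.5 and 540.6 against 404.0, 461.7 and 356.3, did not pass (difference 0.44, adjusted p = 0.18 by limma), although its 3 infarct values lay above the sham values. Fosl1, an AP-1 factor found in later growth responses, read 164.9, 79.0 and 135.1 against 10.5 to 20.8 in sham upper tissue. Its difference was 1.49, and its infarct signal straddled the level of 108.2 units that was used to keep genes.

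Rises were also frequent among cytokines and chemokines, against 5.25% of all genes higher and 6.69% lower. Among 31 genes of interleukins and the Il6 receptor pathway 9 rose and 1 fell (median 0.28), and among 26 chemokines and receptors 9 rose and none fell (median 0.45). Il6, the cytokine that drives the acute phase response through gp130, had the largest rise of all genes that passed. It read 3372.8, 3833.1 and 3478.0 on the infarct arrays against 9.0, 16.2 and 75.1 on the sham upper arrays, a log2 difference of 5.60 (SE 0.38, adjusted p = 2.6e-14 by limma). The sham values lie at the floor of the array, so this size depends on the units added before the logarithm. Socs3, the feedback inhibitor that Il6 signals induce, went from 327.9 ± 70.6 to 2774.7 ± 517.5 (SD, n = 3 each), a difference of 2.92. The receptor chains did not pass: Il6st (gp130) differed by 0.14, Il6ra by -0.35 and Osmr by 0.14, with adjusted p values of 0.48, 0.12 and 0.65 by limma.

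Neutrophil-attracting and monocyte-attracting chemokines rose together. Cxcl1 read 6003.1, 6971.7 and 7591.7 in infarct against 277.4, 348.3 and 766.5 in sham upper tissue, a difference of 3.87 (SE 0.35). Cxcl2 went from 25.8 ± 3.8 to 947.3 ± 109.4 and Cxcl5 from 54.6 ± 11.2 to 1011.4 ± 112.6 (SD, n = 3 each), differences of 3.79 and 3.40. Both are ligands of the neutrophil receptor Cxcr2. Ccl2, the main monocyte attractant, read 2089.1, 2766.5 and 2737.7 against 134.4, 94.0 and 248.9, a difference of 3.71 (SE 0.41). Ccl7 rose by 2.66, Ccl11 by 2.03 and Ccl3 by 1.42. The homing ligand Cxcl12, at 2193.6 to 2545.1 in infarct and 1407.1 to 2107.7 in sham, did not pass (difference 0.46, adjusted p = 0.13 by limma). Il1b read 242.2, 270.5 and 309.1 against 20.2, 15.2 and 55.3. Its difference of 2.11 (adjusted p = 0.018 by limma) did not pass without infarct array 2 or 3 or without sham upper array 1 or 2, where the adjusted p was 0.059, 0.06, 0.062 and 0.069.

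Against 5.25% of all genes higher, 5 of 26 genes of TNF and NF-kB feedback rose and none fell. They were Nfkbiz, a nuclear co-activator of Il6 (2.43), the prostaglandin enzyme Ptgs2 (2.38), the stress gene Gadd45b (2.07), the ubiquitin-editing inhibitor Tnfaip3 (1.08) and the lipopolysaccharide co-receptor Cd14 (1.06). Nfkbia, the classic inhibitor of NF-kB, differed by 0.22 and did not pass. Tnfaip3 did not pass without infarct array 1 (adjusted p = 0.056 by limma). Cd14 did not pass without infarct array 2 or 3 or sham upper array 3 (adjusted p = 0.053, 0.076 and 0.067). Interferon-induced genes stayed near the median of all genes: 1 of 24, Irf8, rose (0.92), against 5.25% of all genes, and the list median was 0.00. The pentraxin Ptx3, a soluble pattern receptor, rose from 71.8 ± 22.3 to 1162.3 ± 209.8 (SD, n = 3 each), a difference of 3.37.

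The 250 bases before the start of transcription of 3 of these genes are shown because they carry matches to the NF-kB pattern of GGG, any 2 bases and TTTCC on either strand. The sequences are RefSeq's for GRCm38.p6, 5′ to 3′ on the gene's own strand, with the matches in capitals, for Il6 at chr5:30012864-30013113, Cxcl1 at chr5:90890995-90891244 and Cxcl2 at chr5:90903649-90903898, all on the plus strand.
Il6: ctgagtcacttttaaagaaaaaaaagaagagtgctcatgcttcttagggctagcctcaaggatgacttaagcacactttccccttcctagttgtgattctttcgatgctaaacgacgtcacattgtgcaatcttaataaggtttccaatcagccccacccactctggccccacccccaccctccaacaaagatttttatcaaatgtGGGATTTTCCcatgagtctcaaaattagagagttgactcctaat
Cxcl1: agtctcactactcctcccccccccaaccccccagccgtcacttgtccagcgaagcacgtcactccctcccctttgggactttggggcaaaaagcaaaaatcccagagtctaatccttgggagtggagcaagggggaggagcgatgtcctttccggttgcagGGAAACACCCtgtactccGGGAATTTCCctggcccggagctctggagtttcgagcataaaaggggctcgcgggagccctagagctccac
Cxcl2: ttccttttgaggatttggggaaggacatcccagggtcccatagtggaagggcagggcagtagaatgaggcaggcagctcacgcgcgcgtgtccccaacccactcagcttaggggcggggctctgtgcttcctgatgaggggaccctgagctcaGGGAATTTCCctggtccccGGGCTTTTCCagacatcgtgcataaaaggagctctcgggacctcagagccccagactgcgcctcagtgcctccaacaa
Il6 has 1 match, 44 bases before the start, and Cxcl1 and Cxcl2 have 2 each. The window of 1.41% of all 32851 RefSeq promoters of that length holds such a match, and 1.62% of those of the genes tested. Of the 107 genes that rose at least 2-fold, 79 had a promoter in the table, with 109 windows, of which 5 (4.59%) held the NF-kB letters, in Cxcl1, Cxcl2, Il1rn, Il6 and Tnfaip3. The AP-1 letters TGANTCA (N is any base) were found in 16 of the 109 windows (14.68%) against 6.75% of all windows and 5.22% of those of the genes tested. The cyclic AMP response element TGACGTCA was found in 7 windows (6.42%) against 1.55% and 2.28%. The 36 genes with a promoter among the 45 that fell at least 2-fold had 53 windows, of which 2 (3.77%) held the NF-kB letters, 1 (1.89%) the AP-1 letters and 1 the cyclic AMP letters. These are matches of letters, not measured binding, and no test was made. The 4 letter patterns do not contain one another.

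**Figure D2:**
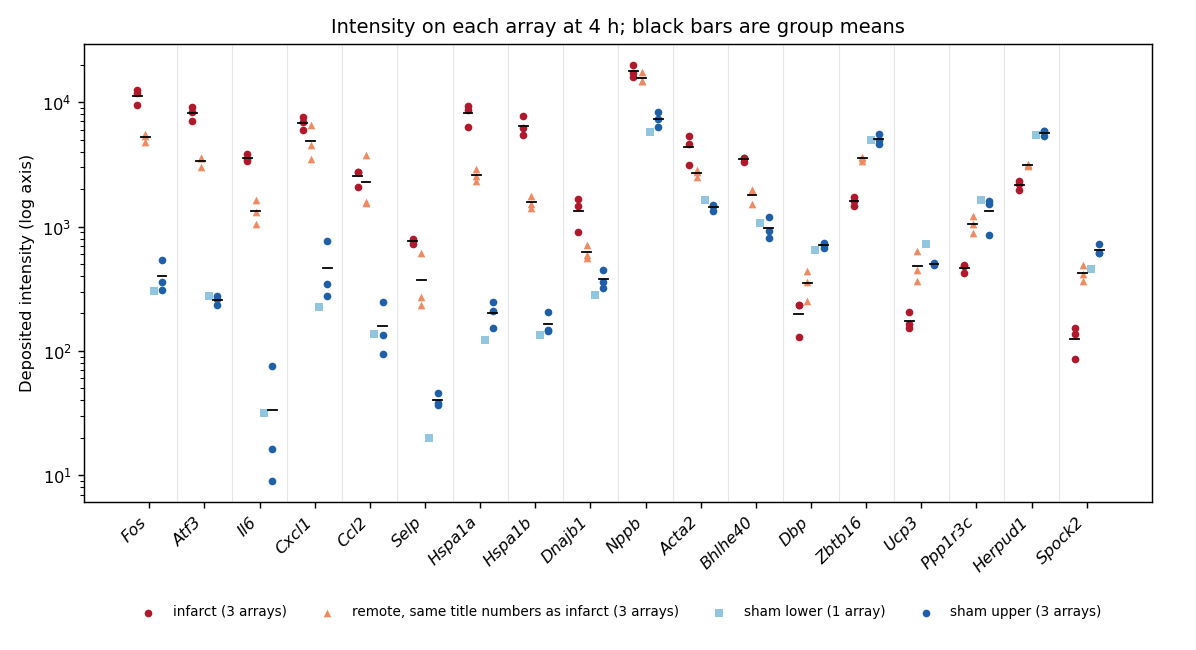
Deposited intensity of 18 genes on each array of 4 h, on a log axis, for 3 infarct, 3 remote, 1 sham lower and 3 sham upper arrays, with black bars at the means of the groups of 3. For Il6 the infarct arrays read at least 3372.8 and the sham upper arrays at most 75.1, whereas for Zbtb16 and Herpud1 the order of the groups is turned.

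Among heat shock chaperones the inducible Hsp70 genes rose most. Of 36 chaperone genes tested, 12 rose, 1 fell and 23 did not pass (median 0.17), and 6 of the 12 passed in every fit with 1 array left out. Hspa1a read 8731.4, 9343.3 and 6357.5 on the infarct arrays against 151.9, 248.8 and 209.3 on the sham upper arrays, a log2 difference of 5.04 (SE 0.48, adjusted p = 1.6e-10 by limma). Hspa1b read 6247.9, 7743.6 and 5465.8 against 144.9, 147.4 and 204.4, a difference of 4.95 (SE 0.48). Array 3 was the lowest of the 3 infarct arrays for both genes and yet lay far above all sham values. Hspa1a and Hspa1b are near-identical copies, and probes of one may bind RNA of the other, so the 2 rises may not be separate.

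The co-chaperones and other classes rose less. Dnajb1, the Hsp40 partner of Hsp70, read 1468.0, 1670.5 and 899.9 against 322.5, 356.9 and 448.7, a difference of 1.69, again with array 3 lowest. Hsp90aa1, the inducible Hsp90, rose by 1.20 and Hsph1, the Hsp110 exchange factor, by 1.05, and their infarct arrays lay within 4634.5 to 5462.5 and 1606.9 to 1669.0. Dnaja1 rose by 0.77. The constitutive Hspa8 and the mitochondrial Hspd1 did not pass, at 0.28 and 0.11. Stub1, a ubiquitin ligase that acts on chaperone clients, was the fall, at -0.44.

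The promoter of Hspa1a is shown because it holds the heat shock element pattern of GAA, any 2 bases, TTC, any 2 bases and G, on either strand. It lies at chr17:34972157-34972406, minus strand, in GRCm38.p6 from RefSeq, and the capitals mark 2 overlapping matches that begin 107 and 104 bases before the start.
Hspa1a: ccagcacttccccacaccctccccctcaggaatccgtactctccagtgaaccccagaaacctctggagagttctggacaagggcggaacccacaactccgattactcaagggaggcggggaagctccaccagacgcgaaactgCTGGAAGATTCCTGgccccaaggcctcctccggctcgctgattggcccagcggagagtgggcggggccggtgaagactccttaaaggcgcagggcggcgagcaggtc
Hspa1b has the same matches at the same distances, and 247 of 250 bases (98.8%) of the 2 windows are identical. Such letters occur in 3.34% of all promoter windows, in 2.83% of those of the genes tested and in 4 of the 109 windows (3.67%) of the genes that rose at least 2-fold, those of Hspa1a, Hspa1b, Inhbb and Slc20a1. A window without a match says nothing about the factor.

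Most genes of the integrated stress and unfolded protein responses that passed were higher. Of 42 tested, 8 rose and 2 fell (median 0.18), against 5.25% of all genes higher and 6.69% lower. Of these, 4 rises and 1 fall passed in every fit with 1 array left out. Atf4, the factor made when translation is curbed, rose from 1336.0 ± 122.8 to 2490.8 ± 133.2 (SD, n = 3 each), a difference of 0.88, and Ppp1r15a, which restores translation, rose by 1.22. Manf, a protein of the endoplasmic reticulum, rose by 0.88 and the reticulum chaperone Hspa5 by 0.56, the latter lost without sham upper array 2 (adjusted p = 0.052 by limma). Herpud1, which takes part in disposal of reticulum proteins, moved the other way: it read 2211.1, 1965.9 and 2326.4 in infarct against 5850.7, 5903.8 and 5361.9 in sham upper tissue, a difference of -1.38 (SE 0.22, adjusted p = 1.7e-05 by limma). The sham lower array read 5410.7 for Herpud1. Ddit3 and Xbp1 did not pass, at 0.35 and 0.43. Hmox1, the heme-degrading enzyme, rose by 1.00, while the metallothioneins Mt1 and Mt2 did not pass at 0.19 and 0.65.

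Genes of growth arrest and cell survival moved in both directions. Of 41 genes of the p53, Gadd45 and apoptosis list, 5 rose and 5 fell (median 0.06), against 5.25% of all genes higher and 6.69% lower. The 5 rises but only 1 of the falls passed in every fit with 1 array left out. Gadd45g rose from 327.1 ± 101.0 to 2807.1 ± 444.4 (SD, n = 3 each), a difference of 2.96, and Phlda1 rose by 2.66. Bcl2l1, which encodes the survival protein Bcl-xL, read 1326.0, 1259.3 and 1187.2 against 3233.4, 3067.7 and 2143.9, a difference of -1.11 (SE 0.18, adjusted p = 3e-05 by limma). Its infarct values all lay below the lowest sham value. Cdkn1a, a p53 target, differed by 0.49 at the probe set used and did not pass, while its other probe set passed with 0.87.

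Vessel genes rose in 2 functions, adhesion and the control of clotting. Of 43 genes of endothelial adhesion and activation, 16 rose and 2 fell (median 0.45), and 11 of the 16 passed in every fit with 1 array left out. Selp (P-selectin), which catches rolling leukocytes, read 770.8, 792.6 and 730.0 on the infarct arrays against 38.2, 45.7 and 36.4 on the sham upper arrays, a difference of 3.24 (SE 0.25, adjusted p = 1.6e-12 by limma). The infarct values spread by 31.8 units (SD) around 764.5. Sele (E-selectin) rose by 2.37 and Icam1, a ligand of leukocyte integrins, by 1.58. Vcam1 differed by 0.63 and did not pass, though 1 of its 2 other probe sets passed with 0.96. Among 24 genes of clotting and plasminogen activation 8 rose and none fell (median 0.30). Plaur, the urokinase receptor, went from 18.1 ± 3.1 to 302.7 ± 69.3 (SD, n = 3 each), and the anticoagulant receptor Procr from 67.4 ± 16.1 to 415.1 ± 82.5, differences of 2.43 and 2.02. Thbd, the thrombin receptor that works with Procr, rose by 1.41 at the probe set used but only by 0.38 at its other one, which did not pass (adjusted p = 0.16 by limma). F3, which starts clotting, differed by 0.07 and did not pass.

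Selp is shown with its promoter as an example of the AP-1 letters TGANTCA, which read the same on both strands. The window lies at chr1:164115014-164115263, plus strand, in GRCm38.p6 from RefSeq, and the match in capitals begins 139 bases before the start.
Selp: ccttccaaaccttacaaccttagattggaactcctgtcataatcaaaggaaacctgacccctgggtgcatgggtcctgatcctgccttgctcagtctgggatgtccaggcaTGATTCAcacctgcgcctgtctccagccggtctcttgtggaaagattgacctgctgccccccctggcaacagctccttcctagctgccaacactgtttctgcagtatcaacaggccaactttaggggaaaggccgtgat
The AP-1 letters also stand before Sele, Plaur, Procr and Il6.

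Growth factors of vessels and their receptors were among the rises. Vegfa read 2315.1, 1997.5 and 1948.0 against 690.3, 477.2 and 645.3, a difference of 1.73, and its receptor Kdr 1267.7, 1365.9 and 1456.2 against 667.8, 520.3 and 504.6, a difference of 1.22. The groups of both genes were apart. The sham lower array read 934.9 for Vegfa and 736.3 for Kdr, above every sham upper array, and neither gene passed against it alone. Ets1, an endothelial transcription factor, rose by 1.20 and the surface sialomucin Emcn by 0.85, but second probe sets gave 0.33 and 0.44 and did not pass. Of 15 endothelial markers 5 rose and none fell, and their summed intensity was 17622 to 19443 in infarct against 14402 to 16914 in sham upper tissue. Pecam1, the general endothelial marker, did not pass at 0.19. The part of the cell mixture in these rises was not tested.

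Secreted proteins of the matrix rose in part. Of 39 genes of matrix proteases and matricellular proteins 9 rose and 1 fell (median 0.29), of which 3 rises passed in every fit with 1 array left out. They included Ccn1, from 316.6 ± 46.7 to 1648.8 ± 164.1 (SD, n = 3 each; difference 2.23), and Ccn2, which rose by 1.16. Collagen and laminin genes showed 4 rises and 2 falls among 40, against 5.25% of all genes higher and 6.69% lower. Col4a1 of the basement membrane was up by 0.78 and Lamb2 down by 0.70 on the log2 scale. Of the rises and falls of this list only these 2 genes passed in every fit with 1 array left out. The wound genes Timp1 (0.73) and Tnc (0.33) did not pass. The summed intensity of 15 fibroblast markers was 43081 to 45670 in infarct and 34132 to 44010 in sham upper tissue, so the groups overlapped.

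Some cytoskeletal genes and Nppb rose, while the main contractile transcripts of heart muscle did not pass. Of 53 sarcomere and cytoskeleton genes 8 rose and none fell, and of 20 natriuretic, angiotensin, endothelin and adrenergic genes 4 rose and none fell. Acta2, smooth muscle actin, read 3153.0, 5346.1 and 4631.6 against 1335.8, 1491.3 and 1450.7, a difference of 1.56 (SE 0.26). Xirp1, an actin-binding protein of the intercalated disc, rose by 1.48 and the cytoplasmic actin Actg1 by 1.19, from 5712.1 ± 395.4 to 13090.9 ± 1131.5 (SD, n = 3 each). The natriuretic peptide gene Nppb read 16063.7, 20000.9 and 17308.5 against 6372.4, 7289.7 and 8284.3, a difference of 1.28 (SE 0.28), while its relative Nppa, at 0.08, did not pass. Agt, the precursor of angiotensin, rose by 2.12 from 35.7 ± 2.9 (SD, n = 3). The adult myosin Myh6 differed by 0.01, cardiac actin Actc1 by 0.08 and the calcium pump Atp2a2 by 0.12, with adjusted p values of 0.99, 0.71 and 0.84 by limma. The summed intensity of 19 cardiomyocyte markers ran from 293461 to 351846 in infarct and from 274273 to 323505 in sham upper tissue.

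Some cardiac transcription factors and ion channel genes fell. Of 23 cardiac transcription factors 4 fell and none rose (median -0.22), against 6.69% of all genes lower and 5.25% higher. Ppara, the nuclear receptor of fatty acid metabolism, read 577.7, 696.9 and 690.0 against 1306.4, 1887.0 and 1318.7, a difference of -1.13. Irx3, a factor of the conduction system, went from 1538.7 ± 119.4 to 768.6 ± 60.8 (SD, n = 3 each; difference -0.96), Hand2 fell by 0.79 and Esrra by 0.52 on the log2 scale. The sham lower array read 237.5 for Hand2 and 1517.7 for Esrra, below every sham upper array. Against that single array the differences were -0.27 for Hand2, -0.18 for Esrra and -1.15 for Irx3. Esrra did not pass without infarct array 2 (adjusted p = 0.052 by limma), and its second probe set gave -0.05. Gata4 did not pass, at -0.12. Of 35 genes of calcium handling and channels 6 fell and 1 rose, but only the fall of the potassium channel gene Kcnh2 (-0.65) passed in every fit with 1 array left out. Kcnj11, a subunit of the channel that opens when ATP runs low, read 481.3, 586.3 and 403.5 against 1306.9, 594.3 and 1317.7. Sham upper array 2 lay close to the infarct arrays, and the call was lost without sham upper array 1 or 3 (adjusted p = 0.061 and 0.058 by limma).

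Few genes passed in most of the metabolic lists. Oxidative phosphorylation had 1 fall among 67 genes tested, the citric acid cycle and amino acid list 3 falls among 36, and fatty acid uptake and oxidation 1 rise and 2 falls among 40, against 5.25% of all genes higher and 6.69% lower. The list of glucose transport, glycolysis and glycogen had 2 rises and 5 falls among 40 (median -0.1). Of these, 1 rise and 2 falls passed in every fit with 1 array left out. Ucp3, a mitochondrial carrier that follows fatty acid supply, read 152.0, 165.8 and 205.8 against 510.5, 497.9 and 494.4, a difference of -1.32 (SE 0.34, adjusted p = 0.0069 by limma). Ppp1r3c, which targets a phosphatase to glycogen, read 482.7, 487.2 and 424.6 against 1619.2, 861.1 and 1528.3 (difference -1.39), and glycogen synthase Gys1 fell by 0.63 on the log2 scale. The phosphoglucomutase gene Pgm2 rose from 107.1 ± 7.7 to 387.8 ± 84.1 (SD, n = 3 each), a difference of 1.49. The glucose transporters Slc2a1 (0.63) and Slc2a4 (-0.64) and hexokinase Hk2 (-0.03) did not pass. Of 40 genes of the proteasome and ubiquitin ligases 5 fell and 1 rose (median -0.12).

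Clock and steroid-responsive genes held several of the largest falls. Of 20 circadian clock genes 5 rose and 3 fell (median -0.26), against 5.25% of all genes higher and 6.69% lower. Dbp, an output factor of the clock, read 128.3, 233.8 and 232.4 in infarct against 706.1, 739.5 and 670.5 in sham upper tissue, a difference of -1.66 (SE 0.33). Its relative Tef read 665.0, 686.2 and 1034.6 against 2166, 2127.4 and 2051.7, a difference of -1.39, and the core repressor Per2 fell by 0.97 on the log2 scale. The core activator Arntl (1.39), the repressors Bhlhe40 (1.80) and Nfil3 (1.33) and Nr1d1 (0.82) rose, although a second probe set of Nfil3 gave 0.28 and did not pass. Per1 did not pass, at -0.31. Zbtb16, a glucocorticoid-induced factor, read 1738.4, 1606.3 and 1476.7 against 4943.7, 5561.8 and 4604.3 (difference -1.62), and a second probe set gave -1.28. The glucocorticoid target Fkbp5 fell by 1.02 and Sult1a1 by 1.07, whereas 4 of the same list of 29 genes rose, among them the phosphatase gene Dusp1 (0.85), Lcn2 (1.16) and Cebpd (0.53). For Lcn2 a second probe set gave 0.12 and did not pass, and Cebpd passed in none of the 6 fits with 1 array left out. The clock hour of each operation is not in the labels, and its part in these values was not tested.

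The largest single fall was Spock2, a secreted proteoglycan, at 135.7, 86.7 and 152.8 in infarct against 613.9, 717.7 and 617.8 in sham upper tissue, a difference of -2.04 (SE 0.39, adjusted p = 0.00031 by limma). Fntb, a subunit of farnesyltransferase, read 32.2, 22 and 49.1 against 281.8, 220.4 and 270.8 (difference -1.93), so its infarct signal was near the floor. The alcohol dehydrogenase Adh1 fell by 1.65 and the ankyrin repeat gene Kank3 by 1.39 on the log2 scale. These 4 genes were taken from falls whose groups did not overlap, so their lack of overlap follows from that choice.

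**Figure D3:**
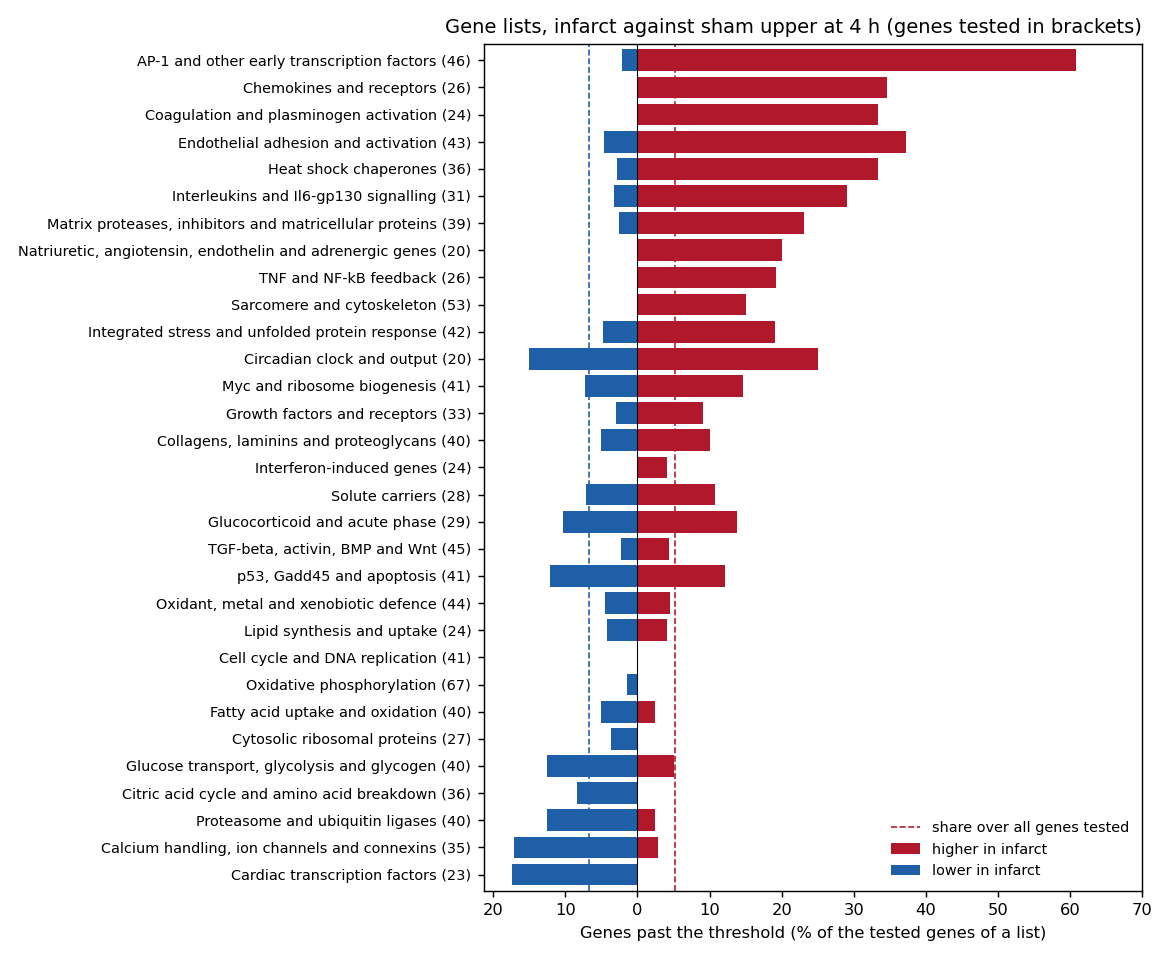
Share of the tested genes of each list that passed, higher to the right and lower to the left, in percent, with the number tested in brackets and dashed lines at the shares over all genes (5.25% higher, 6.69% lower). The early transcription factor list has the longest bar to the right, with 28 of 46 genes. The cardiac transcription factor list has the longest to the left, with 4 of 23.

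Markers of blood cells were examined because they bear on the inflammatory genes. The sum of 16 neutrophil markers was 3655 to 4108 units on the infarct arrays and 1547 to 1792 on the sham upper arrays, and 3 of 13 tested rose in the infarct. The remote arrays, at 4111, 4314 and 7352, all lay above the infarct arrays. S100a9 read 751.6, 702.4 and 770.7 against 125.6, 113.6 and 128.6, a difference of 2.23, and S100a8 855.3, 654.0 and 995.4 against 239.4, 203.1 and 250.6, a difference of 1.66 that did not pass without infarct array 3 (adjusted p = 0.06 by limma). Of 16 neutrophil markers 8 stayed below 108.2 units on all 6 arrays, and none of the marker genes read 0. The sum of 25 monocyte and macrophage markers was 13043 to 13563 against 10721 to 12362, with 1 of 23 tested, Cd14, higher. Over all genes tested 5.25% were higher. Sums were also higher without overlap for red cell and platelet markers (21600 to 27166 against 19383 to 21565), smooth muscle and pericyte markers (14066 to 16409 against 11405 to 13080) and mesothelium markers (1572 to 1770 against 1078 to 1362). Single genes weighed heavily in 2 of these sums. Of 12 smooth muscle and pericyte markers only Acta2 passed (mean 4376.9 against 1425.9), and the list median was 0.09. Hba-a1 (mean 22394.7 against 18461.6) made up most of the red cell sum, and 0 of 6 markers tested there passed. They overlapped for B cell markers (6452 to 8582 against 5400 to 7239), adipocyte markers (2137 to 2267 against 2068 to 2255), T and NK cell markers (1663 to 1808 against 1499 to 1716) and atrial and skeletal muscle markers (24056 to 27163 against 17981 to 25510). The part of incoming cells in the chemokine and cytokine values was not tested.

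**Figure D4:**
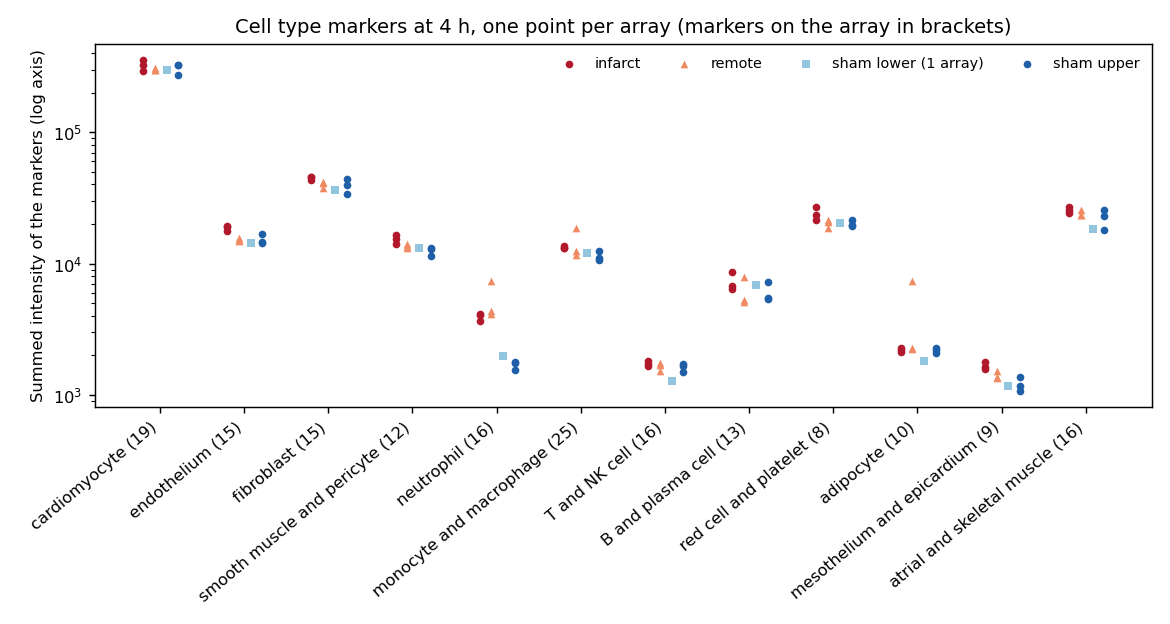
Summed intensity of the markers of each cell type on every array of 4 h, on a log axis, with the number of markers on the array in brackets. Neutrophil markers separate infarct (3655 to 4108) and remote tissue (4111 to 7352) from sham upper tissue (1547 to 1792), cardiomyocyte markers overlap, and 1 remote array stands high for adipocyte, neutrophil and macrophage markers.

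The infarct arrays did not move equally far. Among the 350 genes that rose, array 1 held the highest of the 3 infarct values for 177 and array 3 for 64, and array 3 the lowest for 174. The median distance of the 3 arrays from the sham upper mean over these genes was 0.90, 0.82 and 0.75. These log2 distances were taken after adding 0.25 units, not the 45.6 used for the differences elsewhere. Among the 446 genes that fell the median distance was -0.61, -0.62 and -0.58. With 45.6 units added, the median difference between the groups was 0.74 for the rises and -0.55 for the falls. Over all genes the median SD between arrays of a group, also with 0.25 units added, was 0.144 (log2) in infarct and 0.170 in sham upper tissue.

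Infarct and remote tissue of the infarcted mice were compared to ask what set the infarcted region apart. Here 95 genes (1.42%) passed, 47 (0.705%) higher and 48 (0.72%) lower in the infarct. This count depended on the fit: it was 51 without the title number as a random block, 18 with it as a fixed block, and 25 to 63 with 1 array left out, as low as 25 without remote array 3, and 16 genes passed in every fit with 1 array left out. Among those 16, Socs3 read 2270.6 to 3304.7 in infarct and 1014.5 to 1371.9 in remote tissue (difference 1.14, SE 0.21, adjusted p = 0.002 by limma), Sele 332.9 to 386.0 against 132.1 to 180.5 (1.04) and Pgm2 296.5 to 462.1 against 148.0 to 227.2 (0.98). Irx3 read 706.9 to 828.5 against 1455.9 to 1956.0 (-1.08) and the lipid droplet gene Plin4 also fell (-1.13). For these 5 genes the infarct and remote arrays did not overlap. With title numbers as fixed blocks Socs3, Irx3 and Plin4 passed (adjusted p = 0.046, 0.046 and 0.047 by limma) and Sele and Pgm2 did not (0.066 and 0.076). Dnajb1 and Junb also passed, at 1.02 and 1.03, as did Hspa1b at 2.01, but not in each fit. Hspa1a (1.62, adjusted p = 0.049), Il6 (1.41, 0.027) and Atf3 (1.25, 0.019) passed with the random block and not without it (adjusted p = 0.11, 0.076 and 0.058 by limma). With the fixed block Hspa1a and Atf3 passed (0.046 each) and Il6 did not (0.065). Fos, Cxcl1, Ccl2, Nppb and S100a9 did not pass, with differences of 1.10, 0.53, 0.25, 0.18 and -0.51.

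One remote array stood apart in this comparison. Remote array 1 read 2657.8 units for the fat hormone Adipoq against 87.1 and 82.0 on the other remote arrays, and 4869.3 for Cd14 against 1622.4 and 2019.9. For Ccl2 it read 3795.6 against 1577.1 and 1538.2. Without it 63 genes passed. The largest difference of all was that of Myl7, the atrial myosin light chain, with 22 to 26.4 units in infarct and 267.7, 637.9 and 527.6 in remote tissue (difference -2.83, adjusted p = 0.019). The adjusted p was 0.055 without the block and 0.046 with the fixed block (limma). The part of the tissue sampled in these values was not tested.

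The infarct effect at 4 h, each time against its own sham upper arrays, was then set against those at 1 h and at 24 h (3 infarct and 3 sham upper arrays each). Between 1 h and 4 h the effect differed for 78 genes (1.17%), 49 (0.735%) with a larger and 29 (0.435%) with a smaller value at 4 h. The inducible chaperones gave the largest gains. Hspa1a differed from sham by 0.45 at 1 h and by 5.04 at 4 h, a change of 4.59 (adjusted p = 5.6e-05 by limma), and Hspa1b by 0.13 and 4.95. Sham upper values of 1 h were high and scattered for both, at 716.2 ± 439.7 for Hspa1a and 867.0 ± 641.3 for Hspa1b, against 203.3 ± 48.7 and 165.6 ± 33.7 at 4 h (SD, n = 3 each). Infarct values were 844.7 ± 204.5 at 1 h and 8144.1 ± 1577.2 at 4 h for Hspa1a, and 682.3 ± 114.1 and 6485.8 ± 1157.4 for Hspa1b (SD, n = 3 each). Selp went from 0.26 to 3.24 (change 2.98, adjusted p = 1.1e-06), Id2 from 0.49 to 3.11 and Il6 from 2.99 to 5.60. Acta2 (-0.15 to 1.56), Ccn1 (0.44 to 2.23), Plaur (0.55 to 2.43), Thbd (0.19 to 1.41), Pgm2 (0.04 to 1.49) and Hsph1 (-0.33 to 1.05) passed in all 12 fits with 1 array left out, as did the 5 genes before them. Id1 moved the other way, from 0.38 to -1.01. Atf3 (2.82 to 4.76), Egr1 (1.59 to 3.33), Dnajb1 (0.41 to 1.69), Hsp90aa1 (0.42 to 1.20) and Cxcl5 (0.50 to 3.40) passed with all arrays but not in each of those fits.

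Other early genes had a difference from sham at 1 h that the test could not separate from that at 4 h. Fos differed by 5.16 at 1 h and 4.68 at 4 h (adjusted p of the change = 0.81 by limma), Cxcl1 by 4.10 and 3.87 (0.91), Junb by 2.01 and 2.62 (0.46) and Ccl2 by 2.77 and 3.71 (0.51). For Fos the means of both groups were higher at 4 h, so its level was not steady. The infarct mean was 4198.3 at 1 h and 11281.5 at 4 h, and the sham upper mean 72.9 and 402.8. The count of 78 fell to 37 without infarct array 1 of 4 h, to 45 without array 2, to 51 without sham upper array 1 of 4 h and to 49 without either infarct array 2 or 3 of 1 h.

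Between 4 h and 24 h the effect differed for 1141 genes (17.1%), 574 (8.61%) with a larger and 567 (8.5%) with a smaller value at 24 h. Neutrophil and wound genes gained: S100a8 went from 1.66 to 4.87, S100a9 from 2.23 to 5.32, Timp1 from 0.73 to 3.31, Hmox1 from 1.00 to 3.36 and Tnc from 0.33 to 2.62. Myc (1.87 to 3.65), Plaur (2.43 to 4.41) and Osmr (0.14 to 2.0) also gained. The endothelial adhesion and activation list had 9 genes with a larger and 9 with a smaller value at 24 h among 43 tested (median -0.10). Kdr went from 1.22 to -0.59, Vegfa from 1.73 to 0.06 and the chemokine Ccl11 from 2.03 to 0.42. Some differences below sham at 4 h were above it at 24 h, as in Bcl2l1 (-1.11 to 0.77) and Fkbp5 (-1.02 to 1.02). Both groups moved in these 2 genes. From 4 h to 24 h the infarct mean of Bcl2l1 went from 1257.5 to 2298.1 and the sham upper mean from 2815.0 to 1293.5. For Fkbp5 these means went from 1152.7 to 2287.3 and from 2394.4 to 1092.7. Kcnj11 (-0.99 to -2.16) lay further below sham at 24 h. Fos, Atf3, Egr1, Il6, Hspa1a, Selp and Herpud1 did not pass this test, with changes from -0.75 to 0.81. Each change here shares the 4 h arrays with the comparison at 4 h, so it is not a separate measurement of the 4 h values.

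**Figure D5:**
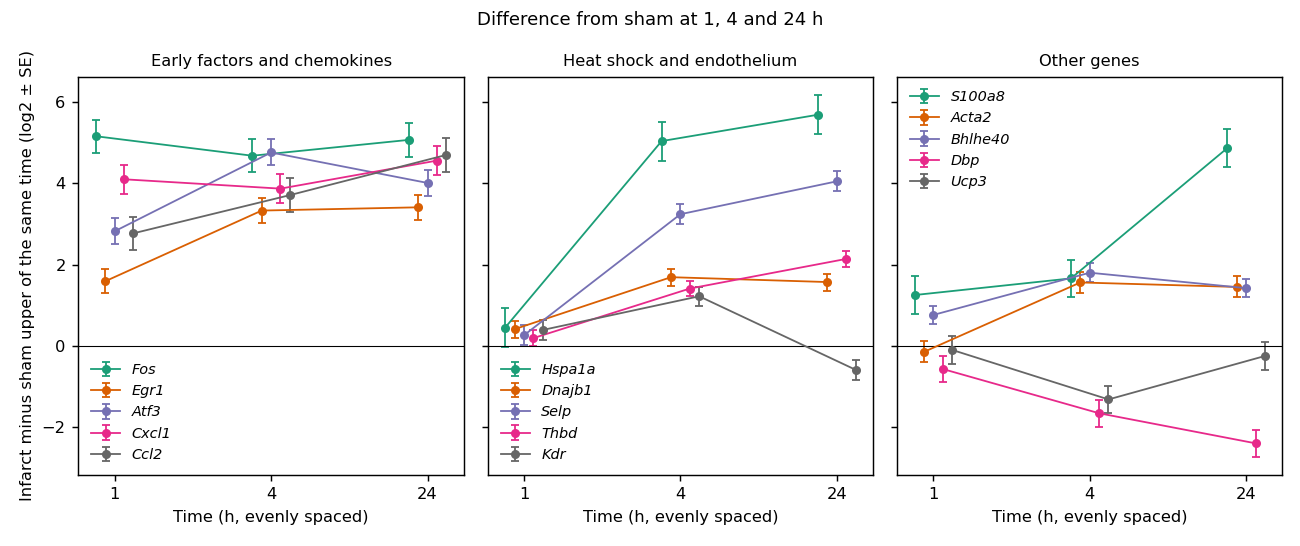
Difference between infarct and sham upper tissue of the same time (log2, with the standard error of the fit) for 15 genes at 1, 4 and 24 h, which are drawn at even distances. Fos and Cxcl1 stand near 4 to 5 at each time, Hspa1a and Selp rise from below 0.5 at 1 h to 5.04 and 3.24 at 4 h, and Kdr is above 0 at 4 h and below it at 24 h.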

How the data were processed

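Each array had 1 column of intensity values, not on a log scale, in the table deposited by the authors. How they were made and scaled is not given in the sources used here. Recomputed from the deposited intensities, the mean between the 2nd and 98th percentile was 499.2 to 499.9 on every array, so they had been scaled. The number of arrays limits the precision. Of 12488 probe sets, 66 controls, 396 with several genes and 1193 with none were left out. The other 10833 covered 8251 genes, each represented by the probe set with the highest mean. Genes reaching 108.2 units, the 40th percentile, on at least 3 arrays were tested, 6670 in all. No 2 arrays were identical.

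Log2 of the intensity plus 45.6 (0.25 times the median of all values) was fitted in R 4.3.3 with limma 3.58.1: 23 groups of region by time over 59 arrays, the title number as a random block (correlation 0.148), and Benjamini-Hochberg adjustment within each comparison. A gene passed at an adjusted p below 0.05. The limma fit of infarct against sham upper tissue was tested on simulated data, and the other steps were not. Tables and figures used Python 3.11.15, pandas 2.3.3 and matplotlib 3.10.9. Promoters came from the RefSeq table of GRCm38.p6. Alternatives were the added units, quantile normalization, the filter, every probe set, the block, the arrays in the fit, the control arrays and each array left out.

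Genes are named by 1 rule: the 12 largest rises and falls that passed without overlap, up to 6 members of each list that passed with the largest change and 2 with the highest mean, 6 rises and falls of each other comparison, and a fixed panel. Jun, Fosb, Egr2, Il6ra, Ccl3, Dnaja1, Hspa8, Hspd1, Stub1 and Pecam1, which the lists hold, were named in addition, after their values were seen. The members and gene lists were chosen with earlier results of these data known.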

Additional observations from a re-analysis of the deposited data

Results flagged for a closer look

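Effects that differed between tissue regions or between times were picked out, since each was tested as a difference in itself (limma, adjusted p below 0.05). No outlier test was run on groups of 3 arrays. Between infarct and remote tissue at 4 h 95 genes passed. The inducible Hsp70 genes Hspa1b and Hspa1a were higher in the infarct by 2.01 and 1.62 and Il6 by 1.41 (log2). Myl7, Spock2 and Ucp3 were lower, with differences of -2.83, -1.47 and -1.25. Of these 6 genes, Hspa1a, Il6, Myl7, Spock2 and Ucp3 did not pass without the random block. In the fit of only the 6 infarct and remote arrays, with title numbers as fixed blocks, all of these but Il6 passed.

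Between the infarct effects at 4 h and at 1 h 78 genes differed. Hspa1b (4.81), Hspa1a (4.59) and Selp (2.98) gained most. Aaas (-2.42), a nuclear pore gene, Ppp1r17 (-1.93), a phosphatase inhibitor gene, and Dicer1 (-1.56), which processes microRNAs, had the largest changes downward. The signal of these 3 genes was low: on the infarct arrays of 4 h they averaged 28.7, 48.1 and 46.7 units, under the 108.2 units used to keep genes, and Aaas read 27.7 on the sham lower array of 4 h.

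Between the infarct effects at 24 h and at 4 h 1141 genes differed. The myeloid genes Arg1 (4.63), Adam8 (4.01) and Chil3 (3.35) had larger effects at 24 h, and Mycn (-2.52), Frmd5 (-2.33) and Myh11 (-2.31) smaller ones. All 3 families of tests use the 4 h infarct arrays, so they are not independent of one another.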

How the results depend on the processing

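The count of 796 genes at 4 h stayed between 774 and 1042 when the added units, normalization, filter, probe sets, block or arrays in the fit were changed, and was 799 with no replicate block. It was 144 against the single sham lower array and ranged from 526 to 595 with 1 array left out. For infarct against remote the count of 95 was 51 with no replicate block and 25 to 63 with 1 array left out. In a fit of only the 6 infarct and remote arrays it was 91 with no replicate block and 18 with the number as a fixed replicate block. Deviations of same-numbered infarct and remote arrays from their group means correlated at 0.04, 0.00 and 0.00. They were taken after adding 0.25 in place of 45.6 units, which lets low signals vary more. The fit itself, with 45.6 units added, found a correlation of 0.148 within title numbers over all arrays. Because the scales differ, these values cannot decide whether the numbers mark pairs. The count of 78 for 4 h against 1 h was 120 in the fit of only the groups compared with no replicate block, which changes both choices, and 37 to 87 with 1 array left out. The count of 1141 for 24 h against 4 h ranged from 763 to 1293 with 1 array left out. The cause of these shifts was not tested. Of 4095 pairs of a named gene and an alternative, 3746 kept direction and side of the threshold, 315 lost the call, 34 gained it and 0 reversed. Of the lost calls, 96 arose with the sham lower array alone. Differences of genes near the floor, such as Il6 in sham tissue, depend on the units added.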

Other observations

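One remote array of 4 h differed from the other 2 in several genes. Remote array 1 read 2657.8 units for Adipoq, an adipocyte hormone, against 87.1 and 82.0, and 306.4 for the protease Adam8 against 49.5 and 48.1. It read 2791.7 for S100a8 against 956.6 and 1234.8. The summed intensity of 10 adipocyte markers ran from 2250 to 7347 over the 3 remote arrays and from 2137 to 2267 over the infarct arrays.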
